A study of Homo sapiens with 2 samples.

Results

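The regions described are the subtelomeric ends of the autosomes, taken as the first and the last 2 Mb of each chromosome in hg19. The short arms of the 5 acrocentric chromosomes (13, 14, 15, 21 and 22) were left out, so 39 ends remained. Within them, the CpG cytosines that reached 5 reads in each library were placed in tiles of 500 bp, and a tile was kept if it held at least 5 such sites. This gave 21935 tiles with 399300 sites out of 172345 tiles on all autosomes, and the other 150410 tiles are called the rest below. The number of tiles in an end ran from 19 on 3p to 1131 on 7p, with a median of 500. Probe positions were not examined. A mean over tiles gives more weight to ends with many measured tiles.

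The study used MCC-Seq (bisulfite conversion followed by capture of CpG-rich DNA) on 1 library of SKNO-1 and 1 library of SKNO-siAE. SKNO-1 is an acute myeloid leukemia cell line with the t(8;21) translocation, which makes the RUNX1-RUNX1T1 fusion (also called AML1-ETO). SKNO-siAE, labelled SKNO1-siAE by the submitters, was made from SKNO-1 with the lentiviral vector pRRLcPPT.hPGK, whose siAGF1 oligonucleotides target the fusion site of the mRNA. Both lines grew in the same medium, and the expression of the fusion was not measured in these libraries, so its silencing could not be checked here. The vector and the knockdown cannot be told apart, because the labels name no control vector in SKNO-1. The site reads added up to 83620068 in SKNO-1 against 82164216 in SKNO-siAE. The median depth of the shared end sites was 15 and 16 reads.

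Chromosome ends finish in repeats of TTAGGG, the telomeres, which protect the DNA from being read as a break. The adjoining subtelomeres hold segments that are nearly identical between chromosomes, many CpG-rich repeats and, further in, gene-dense and GC-rich sequence. In differentiated cells their CpGs are commonly methylated, except at the promoters of active genes, and in the ICF syndrome, an inherited immune deficiency, methylation is lost at such repeats. Several gene groups important in blood cells lie close to a chromosome end, among them the alpha-globin genes on 16p and the neutrophil serine proteases on 19p.

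A level is the share of reads that stayed cytosine after conversion, from 0 to 1, averaged over the sites of a tile. Pairs of values give SKNO-1 first and SKNO-siAE second. A difference is the level in SKNO-1 minus that in SKNO-siAE, so negative values mean less methylation in the line that carries the active fusion. A tile was called lower or higher at a difference of at least 0.2, the smallest difference that the study accepted for a differentially methylated region. With 1 library per cell line this is a rule of size, not a test.

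The 4 tiles printed here are the pairs with the largest difference in each direction, to show the kind of sequence that was fully unmethylated in one line and methylated in the other. The bases are the plus strand of hg19, and capitals mark CpGs with a shared site.
18q KCNG2 intron, chr18:77558701-77559000, plus strand: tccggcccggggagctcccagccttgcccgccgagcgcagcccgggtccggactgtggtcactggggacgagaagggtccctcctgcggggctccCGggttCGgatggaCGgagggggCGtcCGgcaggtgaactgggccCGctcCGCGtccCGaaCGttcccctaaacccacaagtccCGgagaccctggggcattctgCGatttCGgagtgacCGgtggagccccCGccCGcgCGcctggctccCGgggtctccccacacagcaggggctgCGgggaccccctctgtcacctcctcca
16q ZFPM1 coding exon, chr16:88600701-88601000, plus strand: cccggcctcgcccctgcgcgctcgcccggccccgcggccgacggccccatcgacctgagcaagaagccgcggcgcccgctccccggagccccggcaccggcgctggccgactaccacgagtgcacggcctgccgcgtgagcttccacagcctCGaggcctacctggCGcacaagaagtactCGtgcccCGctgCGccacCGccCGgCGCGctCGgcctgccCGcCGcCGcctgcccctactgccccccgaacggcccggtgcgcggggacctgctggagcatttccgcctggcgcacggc
18q ATP9B promoter, chr18:76828514-76828813, plus strand: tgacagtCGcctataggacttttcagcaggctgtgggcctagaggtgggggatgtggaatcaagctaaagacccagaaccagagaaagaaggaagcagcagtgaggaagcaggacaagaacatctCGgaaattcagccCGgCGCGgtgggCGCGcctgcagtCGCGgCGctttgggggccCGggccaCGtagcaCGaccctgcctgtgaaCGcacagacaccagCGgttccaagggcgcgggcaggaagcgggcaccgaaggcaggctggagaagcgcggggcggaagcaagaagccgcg
15q ADAMTS17 coding exon, chr15:100672160-100672459, plus strand: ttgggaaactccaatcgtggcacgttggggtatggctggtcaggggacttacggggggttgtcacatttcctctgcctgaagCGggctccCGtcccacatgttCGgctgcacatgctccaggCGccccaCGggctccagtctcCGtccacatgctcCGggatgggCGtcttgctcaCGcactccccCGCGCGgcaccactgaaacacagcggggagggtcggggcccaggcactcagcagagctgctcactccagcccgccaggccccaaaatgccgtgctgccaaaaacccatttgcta

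The KCNG2 stretch belongs to an intron of a gene for a potassium channel subunit, 518 kb from the end of 18q. Its tile had 0 of 158 methylated reads in SKNO-1 against 113 of 113 in SKNO-siAE. The ZFPM1 stretch lies in a coding exon of FOG1, a cofactor of GATA factors in blood development, and had 0 of 107 methylated reads in SKNO-1 against 120 of 120 in SKNO-siAE. Both tiles were thus unmethylated in SKNO-1 and methylated in the derivative, at all 19 and all 17 shared sites.
The next tiles of the same direction were an intron of ARID3A on 19p, with 1 of 155 reads against 297 of 298, and a UTR exon at the promoter of ARHGAP39 on 8q, with 4 of 263 against 288 of 289. ARID3A encodes a DNA-binding protein and ARHGAP39 a GTPase-activating protein.

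In the opposite direction, the tile before the start of ATP9B, a phospholipid transporter gene on 18q, had 232 of 232 methylated reads in SKNO-1 against 0 of 306 in SKNO-siAE. The coding exon of ADAMTS17, a secreted metalloprotease gene on 15q, had 211 of 212 and 0 of 198. An intron tile of C7orf50 on 7p had 226 of 228 and 0 of 314, and an exon tile of the noncoding gene LINC03014, 150.2 kb from the end of 7p, had 183 of 185 and 0 of 181. Each of these 8 tiles passed Fisher's exact test at every shared site in the direction of the tile. The tiles were chosen for their large differences in the same counts, so this restates the choice and adds no support. The counts of 0 allow shares of methylated reads of up to 0.955% to 2.8%. Reads that cover neighbouring CpGs come from the same molecules and PCR copies are possible, so these limits cover counting error only.

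Over all end tiles, the mean level was 0.718 in SKNO-1 against 0.780 in SKNO-siAE, a difference of -0.0627, and the medians were 0.862 and 0.911. Among the end tiles, 3492 (15.9%) were lower and 886 (4.04%) were higher in SKNO-1, beside 17.4% and 4.7% of the tiles on all autosomes. The ends were therefore more methylated than the rest in both lines, while the share of tiles on either side of the limit was close to the background. The rest had mean levels of 0.610 and 0.679, a difference of -0.0694. When the tiles of the rest were weighted to the mix of annotation and CpG number at the ends, their levels were 0.653 and 0.724 and the difference was -0.0708. The tiles just inside the limit differed by -0.2 and 0.2, and those just outside by -0.199991 and 0.199933.

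Tiles that were highly methylated in both lines, over 0.8, made up 53.4% of the end tiles and 41.7% of the rest. Tiles that were low in both, under 0.2, made up 8.88% and 17.4%. A full switch from low in SKNO-1 to high in SKNO-siAE was seen in 323 end tiles (1.47%, against 2.12% in the rest), and the opposite switch in 133 (0.606%, against 0.473%). Most tiles of the ends were accordingly methylated in both lines.

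**Figure D1:**
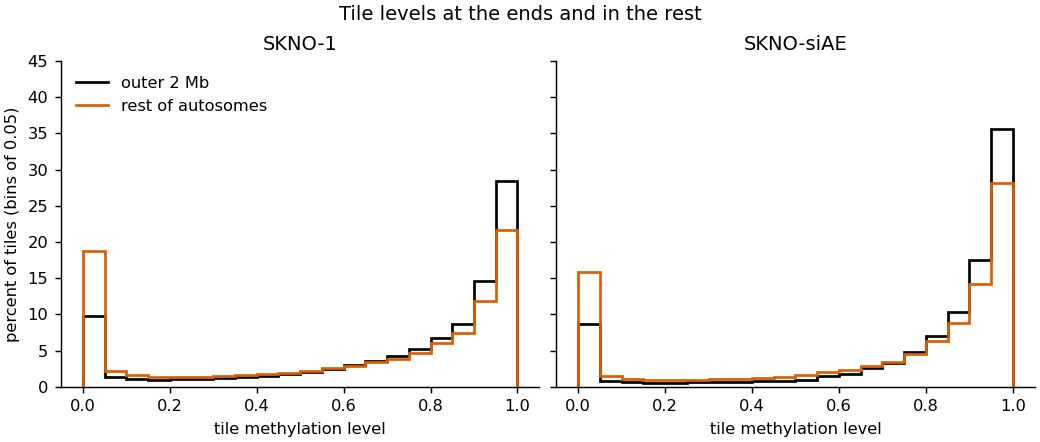
Share of tiles (y axis, percent, bins of 0.05) at each methylation level (x axis) for the 21935 tiles of the outer 2 Mb and the 150410 tiles of the rest, with 1 panel per library. The ends hold fewer tiles near 0 and more near 1 than the rest in both libraries, with medians of 0.862 and 0.911 at the ends.

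The strand on which a site lies gives a measure of the noise within a library. In the 10296 end tiles that had enough sites on both strands, the strands of SKNO-1 differed by 0.2 or more in 2.68% of tiles one way and 2.61% the other, and those of SKNO-siAE in 2.07% and 1.79%. Between the libraries, the plus strand alone was lower in SKNO-1 in 13.9% of these tiles and higher in 3.89%. Tiles lower in SKNO-1 were thus far more frequent than differences between strands, and tiles higher in SKNO-1 were somewhat more frequent. The strands share a library, so this spread holds no variation between cultures.

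By Fisher's exact test (2-sided, Benjamini-Hochberg adjustment over all shared sites), 43819 of the 417591 shared end sites were lower in SKNO-1 by at least 0.2 at an adjusted p under 0.05, and 17599 were higher. These are 10.5% and 4.21%, beside 11.7% and 4.41% of the shared sites on all chromosomes. The test compares 2 libraries and not the conditions.

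Levels differed by kind of sequence. Promoter tiles of the ends, from 1000 bp before to 500 bp after a coding gene start, had mean levels of 0.349 and 0.392, against 0.335 and 0.40 in the rest. Coding exons had 0.833 and 0.872 (0.775 and 0.826 in the rest), and introns and UTRs had 0.776 and 0.837 (0.694 and 0.756). Tiles outside coding genes had 0.693 and 0.786, with 21.9% of them lower in SKNO-1, and 22.1% in the rest. Promoters at the ends were thus about as low as elsewhere, and among the classes a higher level of the ends was seen in gene bodies and between genes. The mix of tiles differed too. Promoter tiles, the class with the lowest level, were 2476 of the 21935 end tiles and 36451 of the 150410 tiles of the rest. Weighted to the mix of the ends, the rest had means of 0.653 and 0.724, so part of the gap went with the mix.
Tiles with at least 30 CpGs in the reference that were not promoters had means of 0.754 and 0.815 at the ends (2807 tiles) and 0.623 and 0.714 in the rest (12450 tiles). Promoter tiles of the same density had 0.227 and 0.270 at the ends and 0.215 and 0.283 in the rest. Dense CpGs of the ends were methylated in most places outside promoters, in both lines.

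The level changed with the distance from the end of the assembled chromosome. In the outer 100 kb the 241 tiles had means of 0.632 and 0.694, a difference of -0.0625. From 250 to 500 kb the means were 0.752 and 0.785, and the difference of -0.0326 was the smallest in size of the 6 distance ranges. From 500 to 1000 kb it was -0.0670, from 1000 to 1500 kb -0.0706 and from 1500 to 2000 kb -0.0657. The smaller difference between 100 and 500 kb was also seen when each end with at least 5 tiles counted once, with means of -0.0327 (100 to 250 kb, 35 ends) and -0.0347 (250 to 500 kb, 36 ends).
Beyond the limit, from 2 to 4 Mb, the means were 0.678 and 0.761, below those from 250 to 2000 kb but above those of the outer 100 kb. The difference there was -0.0827. Over 10 Mb from an end the means were 0.596 and 0.663 with -0.0673. The last 100 kb inside the 2 Mb limit had a difference of -0.0424 (991 tiles) and the first 100 kb outside it -0.0826 (940 tiles), so neighbouring stretches varied by as much as the ranges did.

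In these tiles all 39 ends had a mean difference below 0, but 6 of them turned above 0 under an alternative setting: 14q (0.125) and 15q (0.00126) within 1 Mb, 9p (0.0132) with at least 10 reads, 6q (0.00884) and 18p (0.0682) with balanced reads, and 18p (0.00485) and 17q (0.00148) without promoter tiles. In 38 ends more tiles were lower than higher in SKNO-1, and on 18p both numbers were 3. The ends varied more than whole chromosomes did, with an SD of 0.0296 over the 36 ends of at least 100 tiles, against 0.00709 over the rests of the 22 chromosomes, whose values ran from -0.0855 to -0.0548. An end holds fewer tiles than a chromosome, which widens its spread. The difference of an end was below that of the rest of its chromosome in 14 cases and above it in 25, and 34 ends had a higher level than the rest of their chromosome in both lines. The p and the q end of the same chromosome did not go together, with a Pearson correlation of -0.419 over 17 chromosomes, given as a description.

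The largest difference was on 3p, with means of 0.491 and 0.719 over 19 tiles, 8 of them lower in SKNO-1 and 0 higher. With merged strands 3p differed by -0.0861 (9 tiles) and with at least 10 sites in a tile by -0.0880 (5 tiles), less than 11q and 7q in both settings. Its mean rests on few loci, among them the starts of CHL1 and CNTN6, which encode neural adhesion molecules. On 11q the means were 0.622 and 0.743 over 244 tiles, a difference of -0.121, with 58 lower and 4 higher. On 7q they were 0.688 and 0.807 over 825 tiles, a difference of -0.119, with 234 lower (28.4%) and 22 higher. The 3 ends lay between 0.719 and 0.807 in SKNO-siAE and between 0.491 and 0.688 in SKNO-1.
Along 7q, the outer 500 kb differed by -0.0292 and the following ranges of 500 kb by -0.117, -0.159 and -0.130. The inner part contains PTPRN2, a long gene for a receptor-type phosphatase of secretory granules. A pair of blocks of lower tiles, chosen after their values were seen, lay inside PTPRN2, with levels of 0.487 and 0.791 in the first and 0.424 and 0.826 in the second, whereas the window at its start was at 0.952 and 0.989.

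The differences nearest to 0 were on 17q, 18p and 15q, an order that changed with the setting. The 1117 tiles of 17q had means of 0.748 and 0.753, a difference of -0.00562, with 103 lower (9.22%) and 86 higher (7.70%). In its 288 tiles with balanced reads, the difference was -0.0380, in its outer 1 Mb -0.0217, and without promoter tiles 0.00148. The 82 tiles of 18p had 0.664 and 0.676, and the 215 tiles of 15q had 0.735 and 0.753, with 26 lower and 15 higher. With balanced reads 18p was at 0.0682 (16 tiles) and 15q at -0.0322 (37 tiles), and with 1000 bp tiles they were at -0.0291 and -0.0341. 17q held 9.71% of all higher and 2.95% of all lower end tiles, beside 5.09% of the end tiles. From 1000 to 1500 kb on 17q the difference was 0.0280, with 30 tiles higher and 17 lower.
The mean over all ends without 17q was -0.0657, and without 7q it was -0.0605.

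The outer part of 14q stood on the other side of 0. Its outer 500 kb had means of 0.872 and 0.733 (37 tiles, 9 higher and 0 lower) and the next 500 kb had 0.798 and 0.685 (41 tiles, 10 higher and 1 lower). Further in, the differences were -0.0865 and -0.120. The outer 1 Mb of 14q holds part of the immunoglobulin heavy chain locus, which is rearranged and active in B cells. The locus extends further in. This stretch was chosen after its values were seen.

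**Figure D2:**
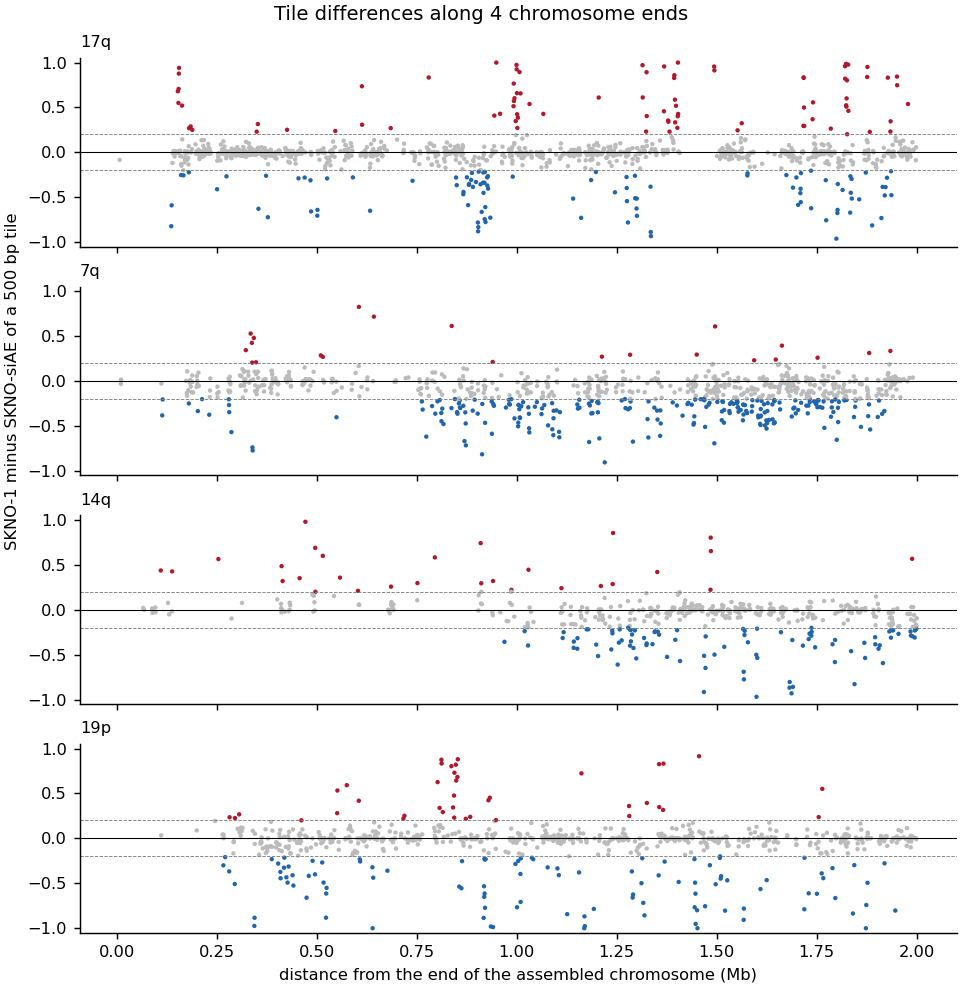
Difference (y axis, SKNO-1 minus SKNO-siAE) of each 500 bp tile against its distance from the end of the assembled chromosome (x axis, Mb) on 17q, 7q, 14q and 19p, with lower tiles in blue, higher tiles in red and dashed lines at 0.2 on either side of 0. On 17q red and blue tiles form separate groups, on 7q blue tiles spread over the inner part, and on 14q the outer 1 Mb holds 19 red tiles and 1 blue tile.

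The number of reads also differed between the libraries by end. SKNO-1 reads divided by SKNO-siAE reads at shared sites ran from 0.424 on 6q to 1.91 on 1q, and it was 0.626 on 7q, 1.67 on 11q and 1.44 on 17q. Over the 39 ends the read ratio and the difference had a Spearman correlation of 0.0652 and a Pearson correlation of 0.0625, given as descriptions over ends of the same 2 libraries. In the 15 ends with a ratio between 0.9 and 1.1, the mean difference was -0.0654 over 8318 tiles, with 16.4% lower and 4.0% higher. The ends with balanced reads thus gave nearly the values of all ends.

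The outermost tile of each end lay between 0 and 204 kb from the last sequenced base, 30 of them within 50 kb. These tiles were methylated in both lines in most cases, with medians of 0.938 in SKNO-1 against 0.922 in SKNO-siAE, and 24 of 39 were over 0.8 in both. A difference of at least 0.2 was found in 5 of them, 2 lower and 3 higher in SKNO-1, beside 17.4% and 4.7% of all autosomal tiles. The largest was on 5q, 204 kb from the last base, with 59 of 892 methylated reads in SKNO-1 against 409 of 410 in SKNO-siAE. On 7p the outermost tile had 57 of 58 and 6 of 30. The 5 tiles that were under 0.2 in both lines were on 12p, 13q, 16p, 18q and 22q.

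The outermost tiles of 4p and 16p reach the first sequenced base of hg19 and hold telomere repeats, and yet they differ in level. The measured part of the 4p tile is shown, with capitals at CpGs that have a shared site. The telomere repeats of this tile lie in its outer part, which is not shown.
4p outermost tile, chr4:10201-10500, plus strand: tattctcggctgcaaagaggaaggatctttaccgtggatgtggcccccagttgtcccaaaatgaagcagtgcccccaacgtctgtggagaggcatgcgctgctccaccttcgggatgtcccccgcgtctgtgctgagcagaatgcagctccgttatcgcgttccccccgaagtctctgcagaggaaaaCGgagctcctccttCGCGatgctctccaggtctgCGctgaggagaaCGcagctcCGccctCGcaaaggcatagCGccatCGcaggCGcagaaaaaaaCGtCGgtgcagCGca

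The tile of 4p had 65 of 65 methylated reads in SKNO-1 against 180 of 194 in SKNO-siAE, whereas that of 16p had 0 of 190 and 0 of 84, which allows shares of up to 1.58% and 3.57%. These single tiles, with 27 copies of the repeat on 4p and 6 on 16p, thus lay at opposite ends of the scale, with both lines on the same side. The 4p tile is 10.3 kb and the 16p tile 60.3 kb from the assembled end. Tiles with at least 3 copies of TTAGGG or CCCTAA (plus strand, without overlap) were few, 45 at the ends (0.205%) and 223 in the rest (0.148%). Their levels at the ends were 0.748 and 0.773, with 6 lower and 3 higher in SKNO-1, beside 17.4% and 4.7% of all autosomal tiles. In the rest, 40 of the 223 were lower and 12 higher. Subtelomeric segments have near-identical copies on other chromosomes, so values in such segments are uncertain even though the authors took calls from unique sequences.

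Neighbouring tiles often differed in the same direction. The Pearson correlation of differences between adjacent end tiles was 0.484, and it fell to 0.259 at 1 kb, 0.123 at 5 kb, 0.0817 at 10 kb and 0.0338 at 50 kb, given as a description across tiles of the same libraries. Called tiles of one direction at most 500 bp apart were joined into blocks, which gave 2634 lower and 739 higher blocks. Of these, 183 and 24 held at least 3 tiles.

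The longest lower block, chr19:917001-921000, covered promoter, UTR and coding sequence of KISS1R, the receptor of kisspeptin, with levels of 0.133 in SKNO-1 against 0.698 in SKNO-siAE over 7 tiles. A block in an intron of CACNA1H, a T-type calcium channel gene on 16p (chr16:1230001-1233500), had 0.276 and 0.858 over 6 tiles. A block in SLC6A18, an amino acid transporter family gene on 5p (chr5:1244001-1247500), had 0.570 and 0.842 over 5 tiles. By Fisher's exact test, 50 of 136, 55 of 92 and 41 of 126 sites in these blocks were lower and 2, 1 and 2 were higher. Of the shared sites on all chromosomes, 11.7% were lower and 4.41% higher. The blocks were built from called tiles of the same counts, so an excess of called sites follows from their choice.
A further block was noticed in CBFA2T3 on 16q (chr16:89006001-89008500) and was chosen after its values were seen, because the gene encodes a relative of RUNX1T1, the partner in the fusion. Its 5 tiles averaged 0.0395 in SKNO-1 against 0.968 in SKNO-siAE, and 75 of its 81 sites passed the test as lower and 0 as higher. It covered an exon and UTR annotated inside the gene, and exons of the noncoding genes ENSG00000261226 and ENSG00000205018. The nearest canonical start of a coding gene, its own, was 36.4 kb away. Starts of other transcripts were not examined for this block.

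Among the higher blocks, that of BAHCC1 on 17q (chr17:79369001-79372500) had levels of 0.580 in SKNO-1 against 0.00916 in SKNO-siAE over 6 tiles. A block in C7orf50 on 7p (chr7:1065001-1067500) had 0.954 and 0.214, and a block in SLC16A3, a lactate transporter gene on 17q (chr17:80193501-80196000), had 0.814 and 0.0263, both over 5 tiles. In these blocks 127 of 185, 91 of 120 and 92 of 112 sites were higher by Fisher's exact test, and 0, 1 and 0 were lower. Of the shared sites on all chromosomes, 4.41% were higher and 11.7% lower. These blocks too were built from called tiles of the same counts. Of the 12 longest higher blocks, 5 lay on 17q, including one inside ACTG1, the gene for cytoplasmic gamma-actin, with 0.712 and 0.0821.

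Some other long blocks and leading tiles were named after their values were seen. The promoter of CHFR on 12q, a mitotic checkpoint gene, lay in a higher block with 0.814 and 0.254 over 3 tiles, and 142 of its 206 sites were higher while 1 was lower. On 19q, a block over the promoter of ZNF814 had 0.976 and 0.0766, whereas a tile at the start of ZIK1 on the same end had 0 of 457 and 836 of 867 methylated reads. Both encode zinc finger proteins and differed in opposite directions. An intron block of RASA3 on 13q, a gene for a Ras GTPase-activating protein, had 0.720 and 0.0195 over 5 tiles.

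The start of a protein-coding gene was measured in a window from 1000 bp before to 500 bp after the start of its canonical transcript, with at least 5 shared sites. Of the 1243 coding genes that start at the ends, 1101 were measured. Their windows had means of 0.309 in SKNO-1 against 0.359 in SKNO-siAE. A total of 142 windows (12.9%) were lower and 41 (3.72%) were higher in SKNO-1, beside 14.6% and 3.25% of the windows on all autosomes. In 460 genes (41.8%) the window was under 0.1 in both lines. Gene starts at the ends were called about as often as those elsewhere.

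Of 28 listed blood cell genes at the ends, 27 were measured, 6 were lower and 3 higher in SKNO-1, beside 14.6% and 3.25% of all autosomal windows. Their median difference was -0.0313, against -0.00662 over those windows. SECTM1, the gene of a transmembrane and secreted ligand of CD7 on 17q, had 40 of 794 methylated reads in SKNO-1 against 767 of 838 in SKNO-siAE, with levels of 0.0461 and 0.901. TNFRSF18 on 1p, which encodes GITR, a receptor found on T cells, had 60 of 913 and 1356 of 1519, with levels of 0.0918 and 0.880. In the 2 windows, 53 of 63 and 64 of 79 sites were lower by Fisher's exact test.
ELANE, the gene of neutrophil elastase on 19p, went the other way. It had 79 of 97 methylated reads in SKNO-1 (81.4%, 95% Wilson interval 72.6% to 87.9%) and 28 of 160 in SKNO-siAE (17.5%, 12.4% to 24.1%), and 8 of its 11 sites were higher. All 11 sites lay between positions -767 and -631 relative to the start, so nearer positions were not covered.

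PRTN3, the gene of proteinase 3, lies beside ELANE and had levels of 0.361 in SKNO-1 against 0.0105 in SKNO-siAE, with 136 of 350 and 6 of 302 methylated reads. With at least 10 reads per site its difference was 0.156, under the limit, in place of 0.350. AZU1, the gene of azurocidin in the same cluster, had 5 of 135 and 0 of 217, a difference of 0.0296, and 0 of its 13 sites passed the test. Across the 30.5 kb from AZU1 to ELANE, the 15 measured tiles had means of 0.685 and 0.335. In SKNO-1, 9 of them were higher and 1 lower, beside 4.7% and 17.4% of all autosomal tiles. The stretch was chosen after its values were seen.
CFD, the complement factor D gene next to ELANE, lay outside this stretch and had 0.0607 and 0.144, lower in SKNO-1 by less than the limit.

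The alpha-globin genes on 16p, which encode a chain of hemoglobin in red cells, had the opposite pattern. HBA1 had 214 of 652 methylated reads in SKNO-1 against 691 of 798 in SKNO-siAE, with levels of 0.343 and 0.844, and 29 of 51 sites were lower while 1 was higher. With at least 10 reads its difference was -0.255 in place of -0.501. HBA2 had 0.264 and 0.859 over 11 sites. HBA1 and HBA2 are nearly identical copies, so how reads were divided between them is uncertain.
The embryonic gene HBZ had 0.575 and 0.738, a difference of -0.163 that was -0.0333 with pooled reads, and HBM and HBQ1 were over 0.8 in both lines, with differences of -0.00957 and -0.00472, which changed sign with the setting. Of the 19 tiles from HBZ to HBQ1, 6 were lower and 0 higher, beside 17.4% and 4.7% of all autosomal tiles.

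The other members past the limit were named after their values were seen. CD7, a T cell surface antigen gene near SECTM1, had 0.685 and 0.943. The 22 tiles from CD7 to SECTM1 had means of 0.496 and 0.856. Of these, 14 were lower and 0 higher, beside 17.4% and 4.7% of all autosomal tiles. IRF4, a lymphoid transcription factor gene on 6p, had 0.689 and 0.931. TNFRSF4, which lies next to TNFRSF18 and encodes OX40, a receptor found on T cells, had 0.742 in SKNO-1 against 0.263 in SKNO-siAE. Neighbours of one family thus differed in opposite directions.

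Of 10 listed genes for telomere and chromosome maintenance, 8 lay at the ends and were measured, 0 were lower and 1 was higher by at least 0.2, beside 14.6% and 3.25% of all autosomal windows. TERT, the catalytic subunit of telomerase on 5p, had 1058 of 1528 methylated reads in SKNO-1 against 999 of 1149 in SKNO-siAE, with levels of 0.655 and 0.810. This difference of -0.154 is under the limit of size, and 20 of its 97 sites were lower and 0 higher by Fisher's exact test. With at least 10 reads per site the difference was -0.302, past the limit. The gene past the limit at 5 reads was FRG1 on 4q, which encodes an actin- and RNA-binding protein, with 0.725 and 0.429, and it has related copies elsewhere in the genome.
DIDO1, a chromatin-linked gene on 20q, had 0.191 and 0.0483, a difference of 0.142 that was 0.0405 with pooled reads, and TELO2, a regulator of checkpoint kinases on 16p, had 0.0995 and 0.00337. The windows of RTEL1 and RECQL4, both helicase genes, had levels from 0.00692 to 0.108. The median difference of the list was -0.00129.
Around TERT, the 179 tiles from SLC6A19 to SLC6A3 had means of 0.713 and 0.816. Of these, 40 were lower and 5 higher, beside 17.4% and 4.7% of all autosomal tiles.

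Of 15 listed genes of growth signalling, 14 lay at the ends, 13 were measured, 3 were lower and 0 higher, beside 14.6% and 3.25% of all autosomal windows. DUSP22, a phosphatase gene on 6p, had 2 of 675 methylated reads in SKNO-1 against 341 of 548 in SKNO-siAE. AXIN1, a brake of Wnt signalling on 16p, had 4 of 118 and 109 of 174, with its sites between positions -644 and -524 relative to the start. PIDD1, a p53-induced adaptor gene on 11p, had 6 of 93 and 57 of 121. The 3 genes shared a low level in SKNO-1, under 0.1, and a higher one in SKNO-siAE. NOTCH1, DVL1 and BSG had 0 methylated reads in both lines, out of at least 101 reads each, which allows shares of up to 2.97%. The median difference of the list was -0.0131.

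Of 17 listed developmental transcription factor genes, 16 lay at the ends, 15 were measured, 2 were lower and 1 was higher, beside the same background. ZNF718 on 4p, a zinc finger gene with close relatives, had 0.108 and 0.350, and MYT1, a neural zinc finger factor on 20q, had 0.625 and 0.845. HES4, a bHLH repressor on 1p, had 0.855 and 0.636, a difference of 0.219 that was under the limit with pooled reads (0.181) and merged strands (0.159). Most of the list was methylated in both lines, with medians of 0.855 and 0.910 and a median difference of -0.0387.

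Of 19 listed genes for ion channels, receptors and synapses, 16 were measured, and 8 were lower and 0 higher in SKNO-1, beside 14.6% and 3.25% of all autosomal windows. The median difference of the list was -0.198. GRIN3B, an NMDA receptor subunit gene on 19p, had 34 of 101 methylated reads in SKNO-1 against 113 of 130 in SKNO-siAE. KCNG2 had 151 of 232 and 313 of 321, and GRIN1, another NMDA receptor subunit gene on 9q, had 538 of 777 and 1764 of 1876. The sites lower by Fisher's exact test were 8 of 14, 8 of 18 and 31 of 95. With at least 10 reads GRIN1 differed by -0.0721, under the limit, in place of -0.355. SLC6A19, CACNA1H, CNTN6 and NTSR1 were also lower, with differences between -0.305 and -0.219. CNTN6 was under the limit with at least 10 reads (-0.191) and with merged strands (-0.189), and NTSR1 with pooled reads (-0.193). The 8 lower windows ran from 0.141 to 0.727 in SKNO-1 and from 0.365 to 0.992 in the derivative.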

How the data were processed

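The authors sequenced SeqCap Epi captures as 125-bp paired reads, trimmed them (cutadapt 1.4.2 in the submitters' processing notes), mapped them to hg19 (BSMAP 2.73) and took calls from unique sequences. The deposited values are raw counts of methylated and unmethylated reads per CpG cytosine and strand, without normalization, for sites with at least 5 reads. Removal of PCR duplicates is not stated in the sources used here. All 3125690 autosomal sites shared by the libraries lay on CpG cytosines of GRCh37. In the mitochondrial DNA, 0.351% and 0.378% of reads were methylated, a measure of incomplete conversion.

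Site levels were averaged per tile. Fisher's exact test was run on each site. The tile call was tested on simulated reads at the end sites. The p-values of the site test were compared with those of scipy at random shared sites, without simulated data. Genes came from GENCODE release 44 lifted to GRCh37. The members and gene lists were chosen with earlier results of these data known. The text names the 3 ends with the highest and the 3 with the lowest mean difference, the 4 tiles with the largest difference in each direction (with at least 10 sites and 100 reads in each library), the 3 blocks of most called tiles in each direction (ties by number of sites), in each gene list the 3 genes with the largest difference, and TERT, ELANE and HBA1. Other items were chosen after their values were seen, as was the canonical start in place of the outermost one. The alternatives were other minimums of reads and sites, 1000 bp tiles, 1 Mb ends, pooled reads, merged strands, balanced reads, tiles without promoters, a limit of 0.4, Bonferroni adjustment and leaving out 1 end. Python 3.11.15, numpy 2.4.6, pandas 2.3.3, scipy 1.17.1, numba 0.67.0 and matplotlib 3.10.9 were used. Of the genes past the limit, 1 is not reported here by name.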

Additional observations from a re-analysis of the deposited data

Results flagged for a closer look

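Sites at the ends that had at least 5 reads in a single library were outside the comparisons and still carried signal. The 161905 such sites of SKNO-1 had a mean level of 0.644, and the 190211 of SKNO-siAE had 0.719. Both sets had a median depth of 8 reads and do not hold the same sites, so the difference between them was not tested.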

How the results depend on the processing

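No paired analysis was possible because each cell line had 1 library. The mean difference at the ends stayed below 0 under each alternative run: -0.0582 with at least 10 reads, -0.0634 with 1000 bp tiles, -0.0593 with at least 10 sites in a tile, -0.0559 with 1 Mb ends, -0.0619 with balanced reads and -0.0652 without promoter tiles. Leaving out 1 end at a time gave -0.0657 (without 17q) to -0.0605 (without 7q). The rest gave -0.0659 with at least 10 reads, -0.0690 with at least 10 sites, -0.0706 with merged strands, -0.0691 with balanced reads, -0.0709 without promoter tiles and -0.0708 when weighted to the ends. The percent of lower end tiles was 14.4 with at least 10 reads, 14 with at least 10 sites, 14.4 with 1 Mb ends, 6.08 at a limit of 0.4 and 15.4 without 7q, and the percent of higher end tiles was 3.4 and 3.13 under the first 2 of these, 3.70 with balanced reads and 1.76 at 0.4. Bonferroni adjustment left 6900 lower and 2429 higher sites. The direction of an end turned in 7 cases: 14q (0.125) and 15q (0.00126) with 1 Mb ends, 9p (0.0132) with at least 10 reads, 6q (0.00884) and 18p (0.0682) with balanced reads, and 18p (0.00485) and 17q (0.00148) without promoter tiles. The causes were not tested, and except on 17q these values rested on 16 to 133 tiles. The named tiles and the genes past the limit kept their direction where they could be measured. Among listed genes under the limit, some turned or passed it: with pooled reads FANCA (0.234), CTBP1 (-0.201), FOXF2 (-0.362) and MAFA (-0.203), with merged strands HCN2 (-0.281) and FGFR3 (-0.226), and with at least 10 reads TERT (-0.302) and FOXF2 (-0.305). HBM turned to 0.139 with at least 10 reads and 0.00239 with merged strands, HBQ1 to 0.0178 with pooled reads and RECQL4 to -0.00163 with merged strands. At 15 or 16 reads, single sites have imprecise levels, and without replicates the spread between cultures is unknown.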
